A study of Mus musculus with 2 samples.

Results

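The genes described here are 10 chemokines, inflammatory cytokines and 1 chemokine receptor of the mouse cerebral cortex: Cx3cl1, Cx3cr1, Ccl2, Ccl3, Ccl4, Ccl12, Cxcl12, Tnf, Il1b and Tgfb1. All probe sets that the platform's gene table pairs with exactly 1 of these symbols were taken, which gave 13 probe sets for the 10 genes, out of 10829 probe sets with 1 symbol for 8251 genes. Total RNA of cerebral cortex was hybridised to 1 array for presenilin conditional double knockouts (PS cDKO) and 1 array for control mice, both 6 months of age. The labels name neither the alleles and strain nor the Cre driver, and do not say what the control mice carry or whether animals were pooled. As background that the labels do not state, in the line published under this name Psen2 is inactivated in the germline and the other presenilin gene only in excitatory neurons of the forebrain, by a Cre recombinase under a CaMKII promoter. With 1 array per genotype, the spread between animals is unknown and no test was possible.

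Chemokines are small secreted proteins that attract and activate leukocytes and glia through G protein-coupled receptors. The fractalkine gene Cx3cl1 is an exception in form and source: its product is anchored in the membrane of neurons, can be shed by proteases, and binds Cx3cr1, which in the brain is carried by microglia and is known to restrain their activation. Ccl2, Ccl3, Ccl4 and Ccl12 are CC chemokines that activated microglia and astrocytes can make, Tnf and Il1b are the classical proinflammatory cytokines, Tgfb1 is an anti-inflammatory cytokine on which microglia depend, and Cxcl12 is made by several brain cell types and guides cells that carry Cxcr4.

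RefSeq promoter windows (GRCm38.p6) were at hand for 8 of the 10 genes; Ccl2 and Ccl4 had no entry. The 250 bases before the annotated start are shown for Cx3cl1, the gene with the lower signal in the PS cDKO, and for Ccl12 and Tnf, those with the largest higher values, so that the regulatory starts of the genes at both ends can be compared. The windows lie at chr8:94771930-94772179 on the plus strand for Cx3cl1, chr11:82101595-82101844 on the plus strand for Ccl12, and chr17:35202008-35202257 on the minus strand for Tnf. Each is written 5′ to 3′ along its gene, and capitals mark the TATA box letters TATAAA.
Cx3cl1: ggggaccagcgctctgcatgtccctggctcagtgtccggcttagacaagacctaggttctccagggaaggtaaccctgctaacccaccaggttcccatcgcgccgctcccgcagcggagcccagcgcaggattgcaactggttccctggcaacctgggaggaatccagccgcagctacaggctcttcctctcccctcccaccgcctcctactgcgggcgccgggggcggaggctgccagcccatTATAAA
Ccl12: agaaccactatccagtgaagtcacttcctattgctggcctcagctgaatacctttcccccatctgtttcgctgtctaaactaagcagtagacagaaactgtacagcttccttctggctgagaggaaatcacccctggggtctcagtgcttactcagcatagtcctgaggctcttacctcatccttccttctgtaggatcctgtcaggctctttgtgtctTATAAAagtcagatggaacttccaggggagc
Tnf: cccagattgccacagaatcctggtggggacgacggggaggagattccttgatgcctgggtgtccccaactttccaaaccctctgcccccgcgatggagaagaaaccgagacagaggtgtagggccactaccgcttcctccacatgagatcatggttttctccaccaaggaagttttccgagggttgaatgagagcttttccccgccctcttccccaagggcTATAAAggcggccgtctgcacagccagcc

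TATAAA, searched on both strands, occurred in 4 of the 8 windows, those of Cx3cl1, Ccl12, Tnf and Il1b, against 12.4% of all 32851 promoter windows of that length. It ended 26 bases before the start in Ccl12 and Il1b and 24 in Tnf, and directly before the annotated start in Cx3cl1. The GC box GGGCGG, on either strand, occurred in 4 of the 8, those of Cx3cl1, Cxcl12, Tnf and Tgfb1, against 32.7% of all windows. The AP-1 letters TGANTCA were in none of the 8 (6.75% of all), and the NF-kB consensus was in 1, that of Tgfb1 (7.25% of all). These are matches of letters within this window and were not linked to the expression values by any test. Cx3cl1, whose signal was lower, and Ccl12 and Tnf, whose signals were higher, all held TATAAA.

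Neuronal Cx3cl1 was lower in the PS cDKO cortex in its main probe set but not in its other, dim one. Its receptor and every measured glial chemokine or cytokine of the set lay between 1.04-fold and 1.29-fold of the control level. Of the 13 probe sets, 9 could be measured, 8 above the floor on both arrays and 1 as a bound. The floor is a scaled signal of 232, the 40th percentile of both arrays pooled, below which values were not ordered, and the PS cDKO array had first been scaled by 0.034 on the log2 scale. Of the 9, 8 were higher in the PS cDKO and 1 was lower, against 52.1% higher among all 6905 measured probe sets. The 8 include the dim Cx3cl1 probe set, which gave the bound. The median log2 ratio of the 9 was 0.17 and that of all measured probe sets 0.012, where every log2 ratio is PS cDKO over control.

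No member probe set was at least 1.5-fold higher (1.27% of all measured probe sets were), and none was at least 1.5-fold lower (1.01% of all). At a smaller size, 0.32 or more on the log2 scale (a ratio of 5 to 4), 2 of the 9 were higher, Ccl12 and Tnf, against 8.57% of all, and 1 was lower, Cx3cl1, against 8.82% of all. The ratio moved with the signal across the arrays. Measured probe sets with a mean signal under 500 had a median log2 ratio of 0.039, and 57.2% of them were higher, 11.1% by 0.32 or more. Those with a signal of 1000 or more had a median of -0.051, and 13.9% of them were lower by 0.32 or more. All 6 member probe sets under 500, among them the dim one of Cx3cl1, were higher, and the lower one was above 1000. The part of this trend in the members' ratios was not tested beyond the lowess and quantile values given below.

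**Figure D1:**
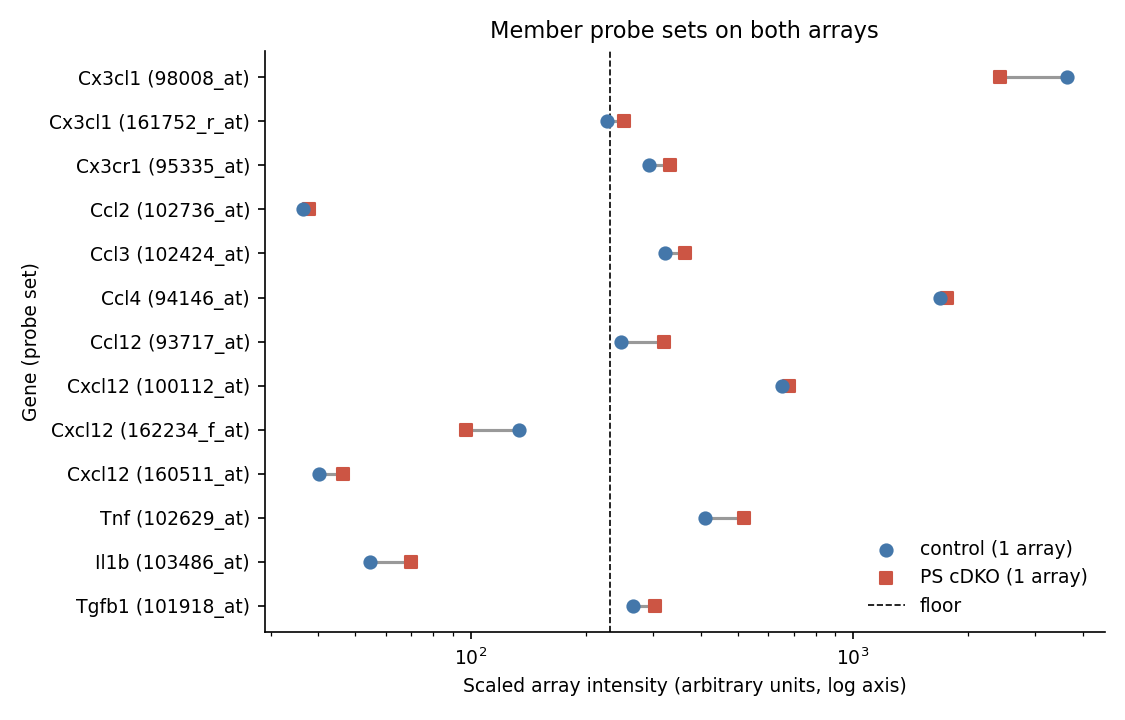
Scaled array intensity (arbitrary units, log axis) of the 13 member probe sets, with 1 point per array, circles for control and squares for PS cDKO, and the floor of 232 as a dashed line. The bright Cx3cl1 probe set is the 1 above the floor where the PS cDKO value lies left of the control value; both Ccl2 and Il1b values lie left of the floor.

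Cx3cl1 gave an intensity of 3627 on the control array and 2435 on the scaled PS cDKO array (2379 as deposited) in its main probe set, matched to accession U92565. The signal of this neuronal ligand was thus 1.49-fold lower in the PS cDKO, a log2 ratio of -0.57. It ranked 67th from the lowest ratio among the 6255 probe sets that exceeded the floor on each array. Of 1242 measured probe sets with a signal of 1000 or more, 17 were lower by as much or more, or 1.37%. The intensities as deposited, without scaling, gave 1.52-fold lower, and lowess smoothing against signal gave a log2 ratio of -0.45, so the value lay on either side of 1.5-fold.

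A further Cx3cl1 probe set, with a suffixed identifier, did not show the lower value. The control array gave 228, just below the floor, and the PS cDKO array 252, a bound of at least 1.09-fold higher. With no floor it was 1.11-fold higher. The lower level of Cx3cl1 therefore rests on 1 of its 2 probe sets, the one with a signal well above the floor.

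Cx3cr1, the fractalkine receptor of microglia, gave intensities of 294 (control) and 333 (PS cDKO). It was 1.13-fold of the control level, a log2 ratio of 0.18, and 1419 of the 6255 probe sets had a ratio as high. The log2 ratio of the main Cx3cl1 probe set was 0.75 below that of the receptor, so these probe sets of ligand and receptor lay on opposite sides of the control level. The receptor's own difference was smaller than 0.21, the SD that 749 genes with 2 probe sets gave for the log2 ratio of 1 probe set; that SD holds no variation between animals.

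Ccl12, a CC chemokine that attracts monocytes through Ccr2, had the highest ratio of the set. The control array gave 248, just above the floor, and the PS cDKO array 320, 1.29-fold higher. The log2 ratio of 0.37 was reached by 350 of the 6255 probe sets. After quantile normalization it was 1.23-fold higher.

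Tnf, the proinflammatory cytokine tumour necrosis factor, gave intensities of 412 (control) and 520 (PS cDKO). It was 1.26-fold higher, a log2 ratio of 0.34 that 452 of the 6255 probe sets reached. With the intensities as deposited it was 1.23-fold higher. Ccl12 and Tnf thus differed by more than the probe set SD of 0.21, but stayed between 0.30 and 0.37 in the settings tried.

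Ccl3, a ligand of Ccr1, gave intensities of 323 (control) and 363 (PS cDKO), 1.13-fold of control. Ccl4, a close relative of Ccl3, had 1696 and 1765, 1.04-fold of control. Both CC chemokines differed by less than the probe set SD. Tgfb1 had 266 and 304, 1.14-fold of control, and the main probe set of Cxcl12 had 652 and 681, 1.04-fold of control, again less than that SD.

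Ccl2 and Il1b could not be measured. Ccl2, the main monocyte attractant, gave 36.4 (control) and 37.8 (PS cDKO), and Il1b, the cytokine interleukin-1 beta, had 54.5 and 69.9, all below the floor. The other two probe sets of Cxcl12 were also below it on both arrays, at 134 and 97.6 in the suffixed one and at 40.04 and 46.3 in the other. No ratio is drawn from these 4 probe sets, and values below the floor allow no statement that these transcripts were absent. Equally, no detection calls were used, so a signal above the floor does not by itself show that a transcript was detected. Measured means here only that the signal exceeded the floor on either array.

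**Figure D2:**
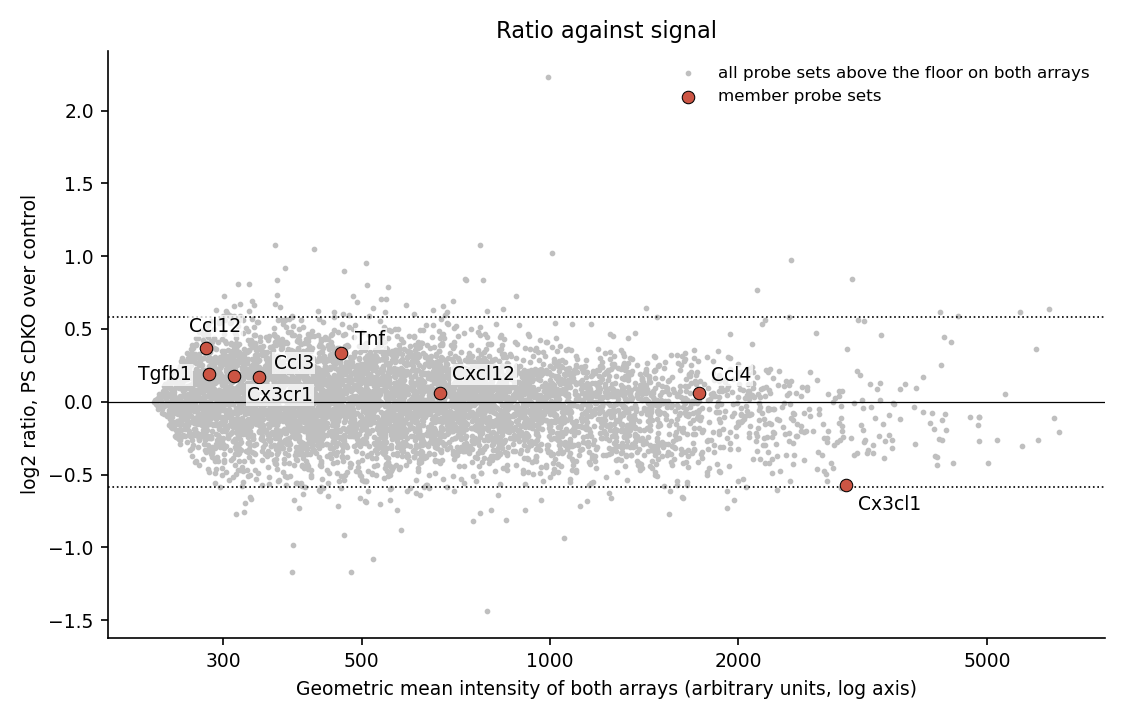
Log2 ratio of PS cDKO over control against the geometric mean intensity of both arrays (arbitrary units, log axis) for the 6255 probe sets that exceeded the floor on each array, with the 8 such member probe sets named; dotted lines mark 1.5-fold. Cx3cl1 lies at -0.57 at the lower edge of the bright probe sets, and the other 7 lie between 0.06 and 0.37.

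Set against the glial members, the neuronal ligand stood lower than each in its main probe set, which is used in this comparison. Its suffixed probe set, with a bound of at least 0.12 on the log2 scale, stood above Ccl4, at 0.057. The log2 ratio of Cx3cl1 was 0.76 below the median of the 5 measured glial genes (Ccl3, Ccl4, Ccl12, Tnf and Tgfb1), which was 0.19, a 1.70-fold difference in ratio. The smallest gap was 0.63, to Ccl4, and the largest 0.94, to Ccl12. The gap to Cxcl12 was 0.64. After the lowess fit, which takes out the trend with signal, the difference from the glial median was -0.59, in the same direction. It was also -0.59 after quantile normalization, which gives both arrays the same distribution of intensities. All these differences come from the same 2 arrays and carry no error between animals.

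Most probe sets of neuron markers were lower in the PS cDKO, and most of those of microglia markers were higher. Bulk RNA does not show which cells the members' transcripts came from. Of 29 measured probe sets of neuron markers, 23 were lower in the PS cDKO, 13 of them by 0.32 or more on the log2 scale, with a median log2 ratio of -0.24. Of all measured probe sets 8.82% were lower by 0.32 or more, and 13.9% of those with a signal of 1000 or more. Their summed intensity was 46599 (control) and 37663 (PS cDKO), and Gad2 and Neurod6 were the 2 of 27 marker genes below the floor on both arrays. The largest differences were those of Nrgn, a calmodulin-binding protein of dendrites, 1.49-fold lower (2014 against 1356), and of the neuropeptides Sst and Npy, both 1.47-fold lower. The log2 ratio of the main Cx3cl1 probe set was 0.34 below the median of these markers. Of the 29, 0 had a lower one, with Nrgn next to it at -0.57. The suffixed Cx3cl1 probe set was not lower. In bulk RNA, fewer neurons and less RNA per neuron cannot be told apart, and the part of the neuron markers in the Cx3cl1 value was not tested.

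Microglia and macrophage markers were higher. Of 19 measured probe sets 18 were higher, 9 by 0.32 or more on the log2 scale and 6 by at least 1.5-fold, with a median log2 ratio of 0.31 and a summed intensity of 11221.5 in the control against 15127 in the PS cDKO. Of all measured probe sets 52.1% were higher, 8.57% by 0.32 or more and 1.27% by at least 1.5-fold. The complement chain C1qa was 2.11-fold higher, the lysosomal protease Ctss 1.79-fold and the complement chain C1qc 1.66-fold. Cx3cr1 lay 0.13 below the median of this list on the log2 scale. Below the floor on both arrays were 8 of its 25 genes on the array, among them the defining genes Aif1, the source of Iba1, and Spi1, the myeloid transcription factor. The part of these markers in the values of Cx3cr1 and of the glial members was not tested.

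Astrocytes are another source of CC chemokines. Their markers had a median log2 ratio of 0.075, with 12 of 19 probe sets higher, against 52.1% of all measured probe sets. The filament gene Gfap was 4.68-fold, the connexin gene Gja1 2.11-fold and the protease inhibitor gene Serpina3n 1.79-fold higher in their most different probe sets above the floor. That Gja1 probe set had a control value of 250, close to the floor, and the brighter one of Gja1 was at 1455 and 1474, 1.01-fold of control. The summed intensity of the list was 30699 (control) and 33614 (PS cDKO). Blood cells could also bring cytokine transcripts. Their markers had a median of 0.11 with 16 of 24 probe sets higher, against the same 52.1% of all. The largest differences were those of the globin Hba-a1 (1.37-fold lower), Ly6g (1.32-fold higher) and Mcpt4 (1.29-fold higher). The sums of this list were 14301 and 14415. The T cell genes Cd3d, Cd3g, Cd8a and Cd8b1 and the cytotoxic cell gene Gzma were below the floor on both arrays. Other such genes were above it on both. These were Cd3e (control 376 against PS cDKO 447), Cd4 (1297 against 1163), Gzmb (1072 against 983) and Prf1 (313 against 343).

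The remaining cell classes had medians near or below 0. Endothelial and mural markers had a median of -0.070 over 13 probe sets, 6 of them higher and 7 lower. Ly6e was 1.57-fold and the tight junction gene Cldn5 1.35-fold lower, and Anpep was higher (309 against 387). Oligodendrocyte markers had a median of -0.13 over 13 probe sets, 4 of them higher and 9 lower. The myelin genes Mobp, Mag and Cldn11 were 1.61-fold, 1.29-fold and 1.28-fold lower in their most different probe sets. The myelin gene Mbp was 1.18-fold and 1.07-fold higher in its 2 probe sets. Meningeal and choroid plexus markers had a median of 0.049 over 18 probe sets, 11 of them higher and 7 lower, against 52.1% higher among all measured probe sets. Ttr was 1.84-fold and Igfbp2 1.60-fold lower, and Col1a1 was 1.27-fold higher. No marker of any of the 7 cell type lists had an intensity of 0 or less on either array, and their part in the members' values was not tested.

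**Figure D3:**
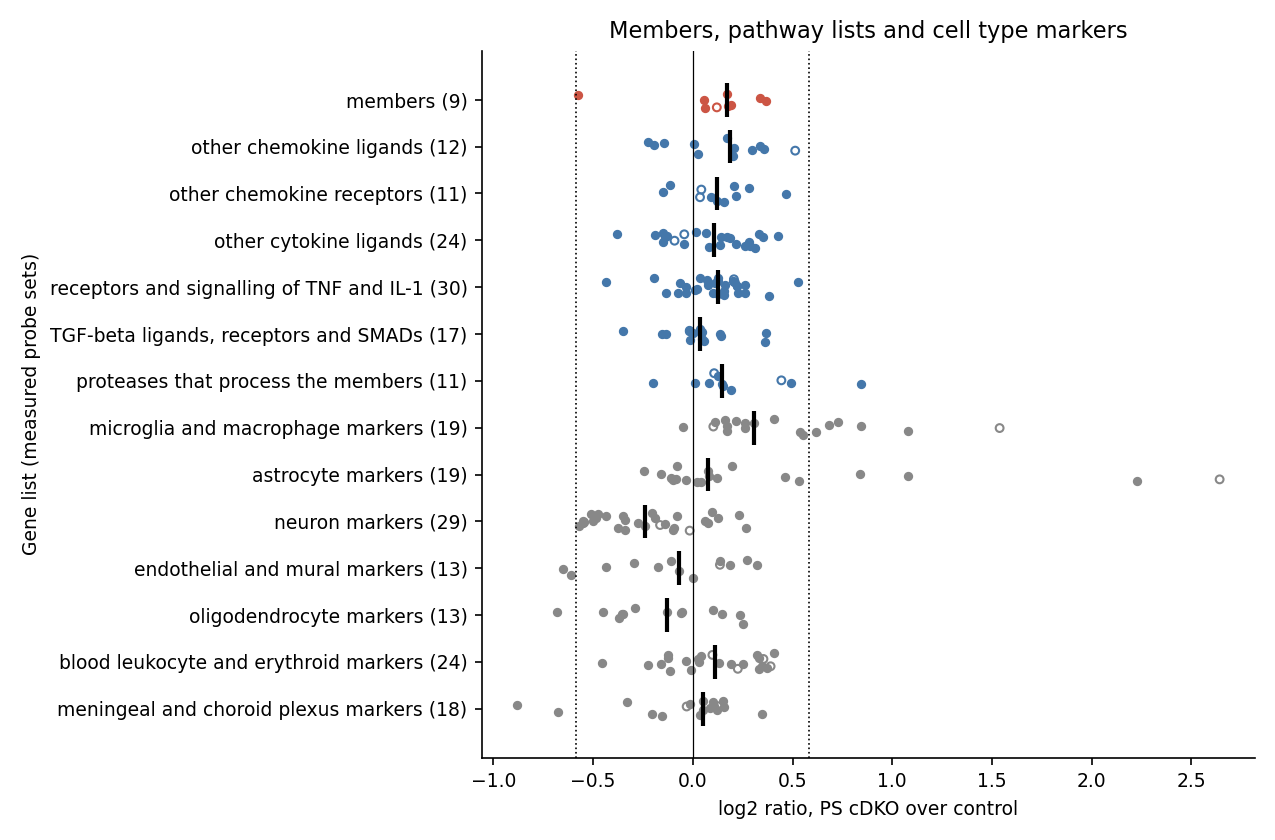
Log2 ratio of PS cDKO over control for every measured probe set of the members, of 6 pathway lists and of 7 cell type marker lists, with the number of probe sets in brackets; filled points are above the floor on both arrays, open points are bounds, black bars are medians and dotted lines mark 1.5-fold. The members' median is 0.17, with the main Cx3cl1 probe set alone at -0.57. The microglia list has a median of 0.31 and the neuron list one of -0.24.

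The other genes of these pathways were given by 6 lists, with 142 of 185 listed genes on the array. Of their 105 measured probe sets 76 were higher, 1 of them by at least 1.5-fold, and 29 lower, 0 by at least 1.5-fold; 14 were higher and 3 lower by 0.32 or more on the log2 scale. The median log2 ratio was 0.11. Of all measured probe sets, 52.1% were higher, 1.27% by at least 1.5-fold and 8.57% by 0.32 or more, while 1.01% were at least 1.5-fold lower and 8.82% lower by 0.32 or more. Many probe sets of these lists had a mean signal under 500. Among all measured probe sets that dim, 57.2% were higher, 11.1% by 0.32 or more. The same shares stand beside the counts of each list below.

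Among the other chemokine ligands, 9 of 12 measured probe sets were higher (median log2 ratio 0.19). Ccl22 and Ccl17, which share the receptor Ccr4, were 1.28-fold (677 against 866) and 1.23-fold higher (258 against 316), and the lymphocyte attractant Xcl1 1.26-fold higher (432 against 545). Ccl1 was 1.17-fold lower (664 against 569). Below the floor on both arrays were 9 of the 19 genes on the array, including the interferon-induced Cxcl10 and the neutrophil attractants Cxcl2 and Cxcl5.

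Among the other chemokine receptors, 9 of 11 probe sets were higher, with a median of 0.12. Ccr4 was 1.38-fold higher (381 against 527), Xcr1 1.21-fold (385 against 468), Ccr8 1.16-fold (1104 against 1282) and Cxcr2 1.15-fold (235 against 270). Several signalling receptors of the members' chemokines gave no ratio: Ccr1, a receptor of Ccl3, Ccr2, the receptor of Ccl2 and Ccl12, and Cxcr4 and Ackr3, the receptors of Cxcl12, were below the floor on both arrays. Ackr2, a scavenging receptor of inflammatory CC chemokines, was at 889 and 991, 1.11-fold of control. Ccr1 had intensities of 37.4 and 68.5 and Ccr2 of 56.1 and 68.7.

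Among the other cytokine ligands, 15 of 24 probe sets were higher, with a median of 0.11. Lta, lymphotoxin alpha, a close relative of Tnf, was 1.34-fold higher (284 against 381), Mif, a macrophage cytokine also made by neurons, 1.26-fold (752 against 945) and Il13 1.24-fold (989 against 1228), and Il11 was 1.30-fold lower (377 against 289). Il6, Il1a, Ifng and Il10 were among 13 of 36 genes below the floor on both arrays.

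The receptors and signalling genes of TNF and interleukin-1 had a median of 0.13, with 23 of 30 probe sets higher and 0 at least 1.5-fold apart. Tnfrsf1a, the main receptor of Tnf, was 1.35-fold lower (684 against 506), whereas Tnfrsf1b, its other receptor, was at 236 and 254, 1.07-fold of control. Il18bp, which neutralises interleukin-18, was 1.44-fold higher (541 against 781). Of the inhibitory adaptors, Tnip1 was 1.20-fold higher, and Tollip was 1.30-fold higher in 1 probe set and 1.14-fold lower in its other. The interleukin-1 receptor genes Il1r1 and Il1r2 were below the floor on both arrays, as Il1b itself was.

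TGF-β ligands, receptors and SMADs had a median of 0.034 over 17 probe sets, 10 of them higher. Tgfb3, a further TGF-β ligand, was 1.29-fold (391 against 503) and the receptor Acvrl1 1.29-fold higher (382 against 493). The integrin gene Itgav, whose product activates latent TGF-β, was 1.28-fold lower (865 against 678) and the SMAD repressor gene Ski 1.11-fold lower. A further probe set above the floor was 1.01-fold lower for Acvrl1 and 1.01-fold lower for Itgav. Tgfbr2, the receptor that binds Tgfb1, was at 265 and 242, 1.10-fold lower.

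Of the proteases that process the members and their regulators, 10 of 11 probe sets were higher, with a median of 0.14. Ctss, which can cleave fractalkine, was the 1 probe set of the pathway lists at least 1.5-fold higher (545 against 978), and it is also a microglia marker. Mmp2 was 1.40-fold higher (233 against 327), with a control value just above the floor. Of the metalloproteases that shed Cx3cl1, Adam10 was at 257 and 294, 1.14-fold of control, in 1 probe set and below the floor in its other, and Adam17, which also sheds Tnf, was at 768 and 840, 1.09-fold of control. Timp3, their inhibitor, was 1.15-fold lower (433 against 377), and Casp1, which activates Il1b, was below the floor on both arrays.

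**Figure D4:**
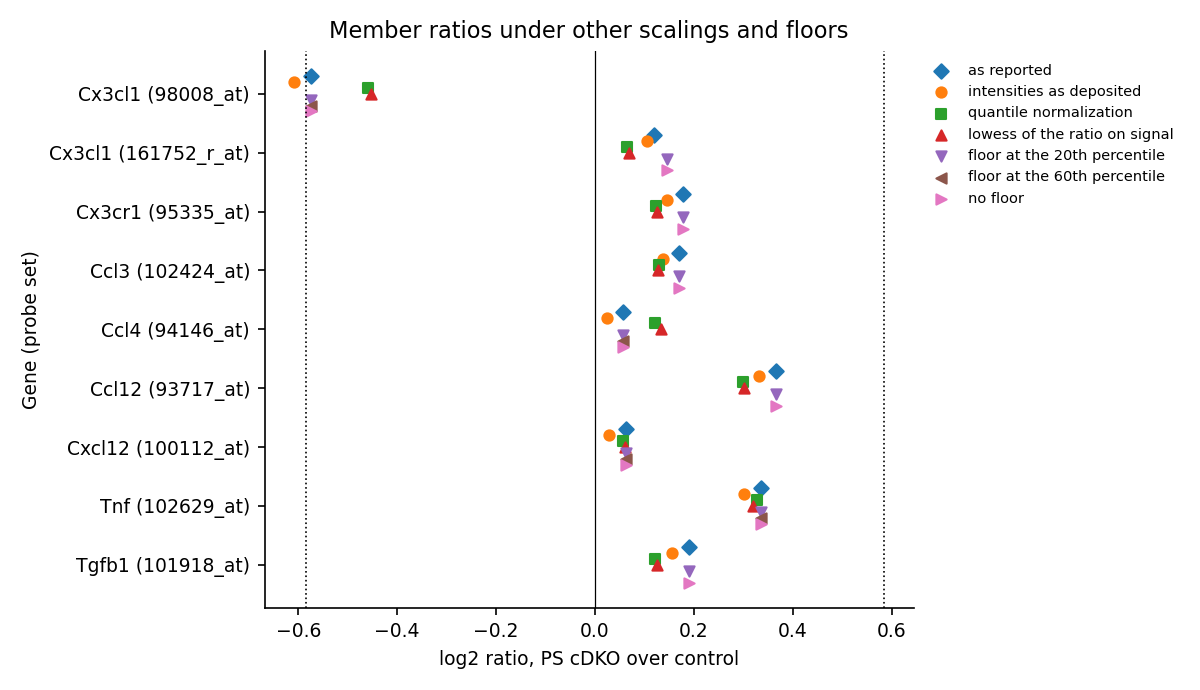
Log2 ratio of PS cDKO over control for the 9 measured member probe sets as reported and under 6 other scalings or floors, each with its own marker; dotted lines mark 1.5-fold and a missing marker means that no ratio could be had. The main Cx3cl1 probe set lies between -0.61 and -0.45, and the other 8 lie above 0 in all settings in which they were measured.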

How the data were processed

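The authors deposited a linear intensity for each of 12418 probe sets on each array; how it was summarised, corrected and scaled is not stated in these sources. Values below 0 occur, 13 on the control and 18 on the PS cDKO array, and the medians were 300 and 305. Psen2 had intensities of 105 and 94.8, below the floor, and gave no check of the genotype. The platform's annotation, which can be old, named 10829 probe sets with 1 symbol, 396 with several and 1193 with none; 10813 had their gene ID in a RefSeq table of GRCm38.p6.

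The PS cDKO array was multiplied to bring the median log2 ratio to 0 across probe sets above the median on both arrays. Values below the 40th percentile of the pooled arrays were set to it, and log2 was taken. Probe sets at this floor on both arrays were not used, and those at it on 1 array gave a bound. The steps were tested on simulated data in which bright probe sets were changed 2-fold. Differences as small as those of the members, and changes in dim probe sets, were not tried. Members and lists were chosen with earlier results of these data known. Named were all members, the 4 genes of each pathway list and 3 of each marker list with the largest absolute log2 ratio above the floor, and any bound past 1.5-fold in a pathway list, of which there was none. The members' receptors and proteases, Mbp, Cd3e, Cd4, Gzmb, Prf1, and genes given only as below the floor, were added after their values were seen. The alternatives were no scaling, quantile normalization, lowess (span 0.3), a lower floor (20th percentile), a higher one (60th percentile), none at all, leaving out suffixed probe sets, the brightest probe set of a gene, and thresholds of 0.32 and 1 on the log2 scale. Python 3.11.15, numpy 2.4.6, pandas 2.3.3, statsmodels 0.14.6 and matplotlib 3.10.9 were used.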

Additional observations from a re-analysis of the deposited data

How the results depend on the processing

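No paired analysis was possible because neither genotype has a further array, and leaving one out was not possible either. The median log2 ratio of all measured probe sets lay between -0.020 and 0.047 over the settings. None of the 9 member probe sets with a ratio in the report changed sign in a setting in which it was measured; with no floor the other 4 also gave ratios, 1.28-fold higher for Il1b, 1.04-fold for Ccl2, and 1.16-fold higher and 1.37-fold lower for the dim probe sets of Cxcl12. The members' median log2 ratio lay between 0.060, at the 60th percentile floor with 4 probe sets left, and 0.17. The difference of the main Cx3cl1 probe set from the glial median lay between -0.77 and -0.59. The count of member probe sets at least 1.5-fold lower was 1 with the intensities as deposited, where Cx3cl1 passed the mark; at 0.32 on the log2 scale the counts were 1 lower and 2 higher. For the pathway lists the count of probe sets at least 1.5-fold higher was 2 at the 20th percentile floor and 10 without any floor, where more dim probe sets were measured, and the count lower was 2 with no floor; at 0.32 they were 14 and 3, and at 2-fold 0 were higher. The TGF-β list had a median of -0.0010 with the intensities as deposited; the medians of the other 5 pathway lists stayed above 0 in the 8 alternatives run on them. Precision was limited by 1 array per genotype and, for Ccl12, Tgfb1, Cx3cr1 and Ccl3, by control values close to the floor of 232.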

Other observations

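Several cytokine pathway genes were measured by 2 probe sets, which did not always give the same value; these genes were chosen after their values were seen. Both probe sets of Lta were higher, 1.34-fold and 1.27-fold, and both of Ccl1, a T cell chemokine, were lower, 1.17-fold and 1.14-fold. The probe sets of Cxcl1, a neutrophil attractant, gave nearly equal levels (419 against 420) and a bound of at least 1.43-fold higher (220 against 331). Those of Tollip gave 1.30-fold higher and 1.14-fold lower, those of Acvrl1 1.29-fold higher and 1.01-fold lower, and those of Itgav 1.28-fold and 1.01-fold lower.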
